A study of Mus musculus with 12 samples.

Results

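The contractile filaments of the ventricle were followed through 10 genes of cardiac tissue, Myh6, Myl2, Myl3, Mybpc3, Actc1, Tpm1, Tnnt2, Tnni3, Tnnc1 and Ttn. They were chosen by name as the main structural components of the ventricular sarcomere, with earlier results of these data known. They were looked up by gene symbol among the 55885 genes of the expression table. All 10 were found, and all 10 were above the filter on low values, 1 TPM or more in 3 or more hearts, which 13815 genes passed. TPM, a unit of transcript abundance, corrects for gene length and brings all hearts to a common total, so genes can be set against each other per length. It keeps no read count, and sequencing depth is therefore unknown.

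RNA from the hearts of 12 male mice aged 8 weeks was sequenced, with 3 hearts in each of 4 groups. All mice are C57BL/6 in the labels and C57BL/6J in the methods. Saline and CDDP hearts came from wild-type mice, and STING-/- and STING-/-+CDDP hearts from mice without the innate immune adaptor STING (genotype Tmem173-/-, the older name of the gene Sting1), which were bought from another supplier than the wild-type mice. Cisplatin (CDDP), a platinum chemotherapy drug, was injected into the peritoneum on days 1, 8 and 15 (6 mg/kg each time), and hearts were taken on day 22. Hearts without cisplatin are untreated in the labels and given saline in the methods, and both names stand for the same hearts. Each heart is a separate animal, and the number of a heart only names it. Sting1 was listed above 0 in every heart, at 2.87 to 5.96 TPM in the 6 hearts of STING-/- mice and at 5.62 to 22.1 in the 6 wild-type hearts. The samples are whole cardiac tissue rather than sorted cells, so fewer cardiomyocytes and less RNA per cardiomyocyte cannot be told apart.

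A sarcomere shortens when myosin heads of the thick filament pull on actin of the thin filament. Calcium released at each beat binds troponin C, the troponin complex shifts tropomyosin along actin, and the myosin sites are uncovered, while titin spans the structure as a spring. In the adult mouse ventricle these transcripts are among the most abundant of the tissue, and the fetal or slow paralogs of several of them, such as the beta myosin heavy chain Myh7 and the skeletal alpha-actin Acta1, are known to return in stressed heart muscle.

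Of the 10 genes, 3 differed between the CDDP and Saline groups, and the sequences before their starts are shown because these were the members that moved. The 150 bases before the RefSeq transcript start on GRCm38.p6, 5′ to 3′ on the strand of the gene, are given in lower case with the match to a CArG box, the element bound by serum response factor, in capitals. The windows lie at chr2:114052876-114053025 (minus strand) for Actc1, chr9:67049214-67049363 (minus strand) for Tpm1 and chr1:135836184-135836333 (plus strand) for Tnnt2.
Actc1: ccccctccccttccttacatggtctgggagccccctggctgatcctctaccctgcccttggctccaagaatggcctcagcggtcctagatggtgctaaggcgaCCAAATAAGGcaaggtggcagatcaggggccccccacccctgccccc
Tpm1: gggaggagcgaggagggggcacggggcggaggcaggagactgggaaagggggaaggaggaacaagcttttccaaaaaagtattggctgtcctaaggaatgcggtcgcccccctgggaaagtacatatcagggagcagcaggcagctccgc
Tnnt2: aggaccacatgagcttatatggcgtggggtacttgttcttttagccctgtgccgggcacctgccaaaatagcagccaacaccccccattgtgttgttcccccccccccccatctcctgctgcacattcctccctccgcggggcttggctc
The CArG box of Actc1 begins at position -47 from the RefSeq start, which is 673 bases inside the gene as GENCODE M21 draws it. On both strands, the windows of 2 of the 10 genes, Actc1 and Myl3, held a CArG box, against 0.916% of 32851 windows of the same length over all RefSeq starts. Only the exact pattern CCWWWWWWGG, where W is A or T, was searched, and near matches in any window were not counted. The windows do not all lie at the GENCODE starts. The RefSeq start used for Myl3, 110763678, is far inside the GENCODE gene, which begins at 110741861. The one used for Myl2, 122093189, lies well before its GENCODE start at 122100951. The element CATTCC was in the windows of Tpm1, Tnnt2, Myl3 and Tnnc1, and in 7.59% of all windows. The motif GATAA was found for Myl3 and Mybpc3 (13.3% of all windows), and TATAAA for none of the 10 (7.57% of all windows). CANNTG was found in the windows of 7 of the 10 genes and in 47.7% of all windows. These matches describe letters and no binding was measured.

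Per length, the members spanned a wide range of levels. In the Saline group, the mean was 10531 TPM for Myl2, 9356 for Tpm1, 6887 for Myl3, 6369 for Tnnt2, 6139 for Actc1, 5694 for Tnni3 and 5487 for Myh6, and then 3286 for Tnnc1, 577 for Mybpc3 and 21.1 for Ttn, the longest of them at 107355 bases. From Myl2 to Myh6, each neighbour in this order overlapped with the next over the 3 hearts. The order was not the same in every group. In the CDDP group Tnnt2 had the highest mean, 9501 TPM against 7375 for Myl2, and Actc1 stood below Tnnc1, at 645 against 3035. In the STING-/- group Myl2 (10480.5), Tpm1 (8082) and Myh6 (7780) had the highest means, and in the STING-/-+CDDP group Myl2 (9812), Tnnt2 (7416) and Tpm1 (6899). Together the 10 genes held 3.51% to 6.45% of the summed TPM of a heart, with 4.56% to 6.45% in the Saline group, 3.51% to 5.02% in the CDDP group, 4.61% to 6.39% in the STING-/- group and 4.20% to 5.16% in the STING-/-+CDDP group, all of which overlapped.

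**Figure D1:**
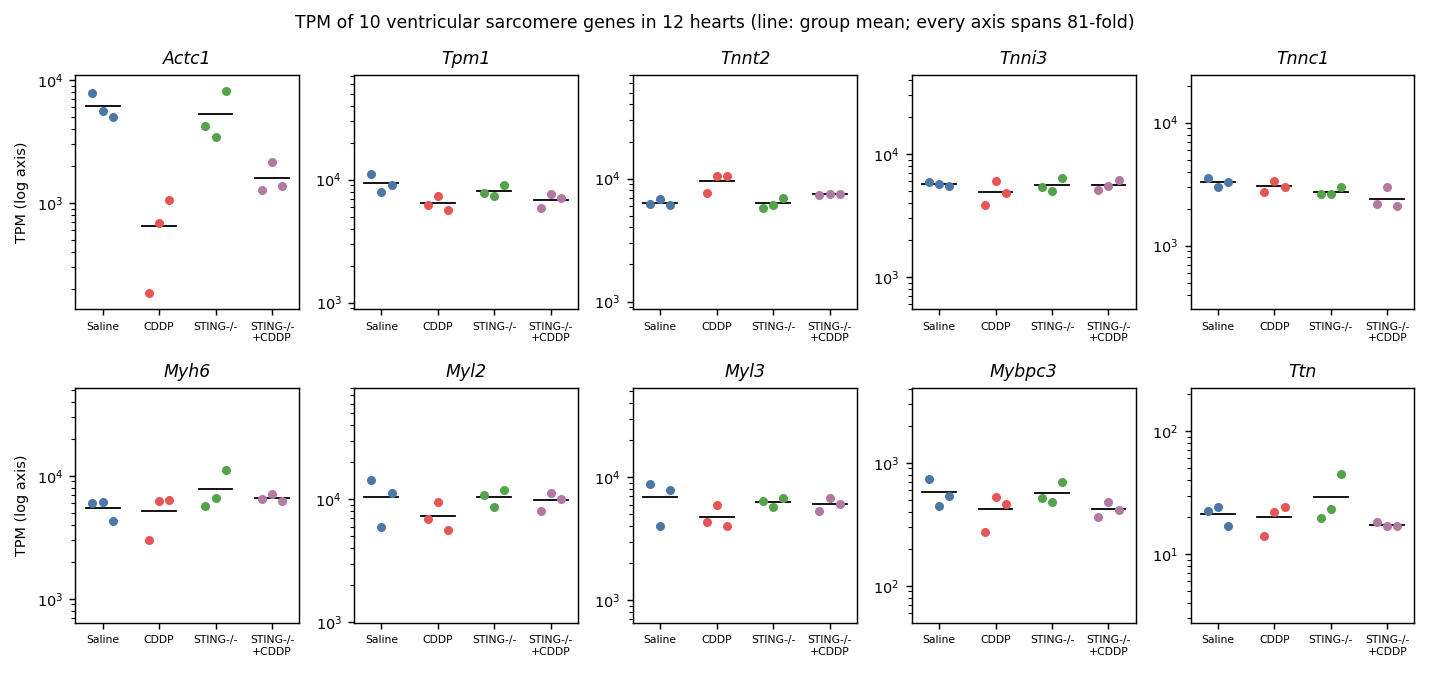
TPM of the 10 sarcomere genes in the 12 hearts, 1 panel per gene, on log axes that all span the same fold range; points are hearts (3 per group) and lines are group means. Actc1 lies between 187 and 1067 TPM in the CDDP hearts and between 5036 and 7824 in the Saline hearts, Tnnt2 is higher in the 3 CDDP hearts than in every Saline heart, and no other panel spreads as widely as that of Actc1, whose highest heart is 43.4 times its lowest.

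The first comparison asked what cisplatin changed in wild-type hearts. Actc1, the cardiac alpha-actin that forms the core of the thin filament, fell 11.7-fold, Tpm1, the tropomyosin that covers it, fell 1.45-fold, and Tnnt2, which ties the troponin complex to tropomyosin, rose 1.48-fold. These are 3 of the 10 genes, 1 higher and 2 lower, while 18.9% of all tested genes were called in this comparison (8.52% higher and 10.4% lower). All 3 are thin filament genes (3 of 5), and none of the 4 thick filament genes or Ttn passed. The calls do not show a change confined to the thin filament. The median log2 fold change was -0.47 for the thick and -0.25 for the thin filament genes. Myl2, Myl3 and Mybpc3 had values of -0.46 to -0.48 with SEs of 0.25 to 0.29, beside -0.54 and 0.15 for Tpm1. The median log2 fold change of the 10 genes was -0.35, with 9 of 10 below 0, and that of all tested genes was -0.0032. A call here is an adjusted p under 0.05 from limma on log2(TPM + 1), with Benjamini-Hochberg adjustment over the 13815 genes.

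Actc1 (ENSMUSG00000068614) lies on chromosome 2 of GRCm38 (114047282 to 114053548, minus strand). It measured 7824, 5559 and 5036 TPM among Saline and 187, 681 and 1067 among CDDP hearts. Its level in the STING-/- hearts was 4254, 3444 and 8112 TPM, and in the STING-/-+CDDP hearts 1282, 2150 and 1370. The groups thus formed 3 tiers without overlap, the CDDP hearts lowest, the STING-/-+CDDP hearts above them, and the Saline and STING-/- hearts together at the top. Between CDDP and Saline the log2 fold change was -3.55 (SE 0.53, adjusted p = 0.00181, limma), lower in 3 of 3 hearts. The call held in all 12 alternatives of the model and in all 12 fits without a heart, with a log2 fold change of -4.13 to -2.82. Ranked by TPM among all genes of a heart, Actc1 was between places 17 and 23 in the Saline, 136 and 500 in the CDDP, 17 and 28 in the STING-/- and 42 and 79 in the STING-/-+CDDP hearts.

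Actc1 was also the most variable member within groups, with an SD of 0.77 on the log2 scale against 0.16 for Tnnt2, and its highest heart was 43.4 times its lowest. Its coding sequence closely resembles that of Acta1, the skeletal alpha-actin, so reads could be split between them, but the sum of both gave the same tiers. That sum was 5124 to 7875 TPM in the Saline, 241 to 1246 in the CDDP, 3998 to 8283 in the STING-/- and 1418 to 2544 in the STING-/-+CDDP hearts. Acta1 itself measured 51.6, 284 and 88.0 TPM among Saline and 53.8, 1.72 and 179 among CDDP hearts. It measured 192, 554 and 172 TPM among STING-/- and 136, 394 and 50.0 among STING-/-+CDDP hearts. The Acta1 values overlapped between all groups (CDDP against Saline, log2 fold change -1.88, SE 1.29, adjusted p = 0.335, limma).

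A noncoding gene on the opposite strand across Actc1, A530058N18Rik, is named here after its values were seen. It measured 62.7, 75.2 and 57.6 TPM among Saline and 4.48, 9.70 and 17.0 among CDDP hearts. It measured 46.8, 60.6 and 81.9 TPM among STING-/- and 21.7, 18.2 and 12.6 among STING-/-+CDDP hearts. It followed the same order as Actc1 in the comparison of CDDP with Saline (log2 fold change -2.69, SE 0.37, adjusted p = 0.00118, limma). Between STING-/-+CDDP and STING-/- it fell by 1.79 on the log2 scale (adjusted p = 0.0483, limma), a call that was lost, with adjusted p up to 0.206, when any heart other than CDDP 1 or CDDP 3 was left out. The sources used here do not say whether reads were counted by strand, so reads of the 2 genes cannot be told apart. The other genes overlapping members were low, at most 69.0 TPM for Nisch over Tnnc1 and 10.4 for Pth1r over Myl3.

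**Figure D2:**
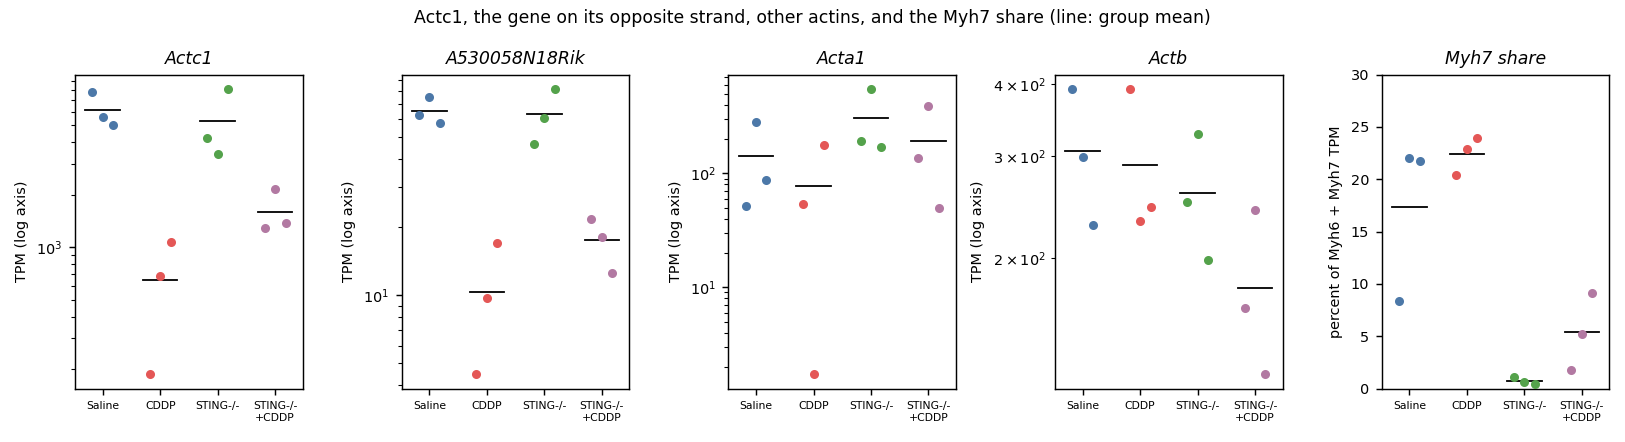
TPM of Actc1, of the gene on its opposite strand, of the skeletal alpha-actin Acta1 and of the cytoplasmic actin Actb (log axes), and Myh7 as a percentage of Myh6 plus Myh7 (linear axis from 0), for 12 hearts with group means as lines. The left pair of panels, each with its own range, sits lower in both cisplatin groups, Acta1 and Actb overlap between the CDDP and Saline groups, and the Myh7 share is at most 1.10% in the STING-/- hearts.

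Tpm1 (ENSMUSG00000032366, chromosome 9, 67022590 to 67049406, minus strand) measured 11131, 7927 and 9011 TPM among Saline and 6256, 7333 and 5692 among CDDP hearts. The 2 groups did not overlap, but the nearest hearts, 7927 and 7333 TPM, were close. Its log2 fold change was -0.54 (SE 0.15, adjusted p = 0.0338, limma). The call was lost without Saline 1 (adjusted p = 0.137), Saline 3 (0.0699), CDDP 1 (0.0736) or CDDP 3 (0.104), and it held in 5 of the 12 other alternatives that were run. Tpm1 measured 7851, 7350 and 9046 TPM among STING-/- and 5936, 7712 and 7048 among STING-/-+CDDP hearts, which overlapped. Smooth muscle and fibroblasts also express this gene, so part of its level can come from those cells.

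Tnnt2 (ENSMUSG00000026414, chromosome 1, 135836354 to 135852260, plus strand) was the member that rose. It measured 6198, 6781 and 6128 TPM among Saline and 7578, 10485 and 10439 among CDDP hearts. The log2 fold change was 0.56 (SE 0.13, adjusted p = 0.0137, limma), with all 3 CDDP hearts above every Saline heart. Leaving out Saline 1 gave an adjusted p of 0.0543, and leaving out the heart with the most atrial transcripts in each group gave 0.106. The STING-/- hearts were at 5784, 6117 and 6942 TPM and the STING-/-+CDDP hearts at 7320, 7433 and 7497, a narrow band above all STING-/- and below all CDDP hearts.

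Tnni3 and Tnnc1 encode the partners of Tnnt2 in the troponin complex, the subunit that holds contraction in check and the one that binds calcium. Tnni3 (chromosome 7, 4518305 to 4524229, minus strand) measured 5881, 5677 and 5525 TPM among Saline and 3819, 6032 and 4810 among CDDP hearts. Tnnc1 (chromosome 14, 31208312 to 31211729, plus strand) was at 3568, 3020 and 3269 TPM and at 2719, 3379 and 3006, respectively. Both overlapped between the groups, with log2 fold changes of -0.25 (95% interval -0.59 to 0.10, adjusted p = 0.299) and -0.12 (-0.44 to 0.20, adjusted p = 0.618, limma). Both intervals end below the 0.56 of Tnnt2. In each heart, the ratio of Tnnt2 to Tnni3 TPM was 1.05 to 1.19 in the Saline, 1.74 to 2.17 in the CDDP, 1.08 to 1.22 in the STING-/- and 1.23 to 1.45 in the STING-/-+CDDP hearts. The ratio of Tnnt2 to Tnnc1 was 1.74 to 2.25, 2.79 to 3.47, 2.22 to 2.33 and 2.50 to 3.58 in the same order of groups. These ratios were formed after the values were seen and are given without a test.

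The 4 thick filament genes had log2 fold changes below 0 with CDDP, but none passed the test. Myh6, the alpha myosin heavy chain and main motor of the adult mouse ventricle (chromosome 14, 54941921 to 54966927, minus strand), measured 6010, 6157 and 4293 TPM among Saline and 3006, 6257 and 6308 among CDDP hearts. CDDP 1 was the low heart, and without it the log2 fold change of Myh6 turned from -0.14 to a positive value, as did that of Ttn, which was positive without Saline 2 too. Mybpc3, the myosin-binding protein that tunes cross-bridges (chromosome 2, 91118144 to 91136516, plus strand), was at 744, 449 and 537 TPM and at 274, 525 and 465, again with its lowest value in CDDP 1. Its log2 fold change was -0.47 (95% interval -1.03 to 0.09, adjusted p = 0.218, limma).

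Myl2 and Myl3 encode the regulatory and the essential light chain of ventricular myosin. Myl2 (chromosome 5, 122100951 to 122113472, plus strand) measured 14303, 5976 and 11314 TPM among Saline and 6940, 9573 and 5612 among CDDP hearts. Myl3 (chromosome 9, 110741861 to 110769798, plus strand) was at 8783, 4027 and 7850 TPM and at 4309, 5914 and 4031. For both, Saline 2 lay within or below the CDDP range, and the other Saline hearts above it. Myl2 had a log2 fold change of -0.46 (adjusted p = 0.300) and Myl3 one of -0.48 (adjusted p = 0.211, limma). Without Saline 2, both passed, at -0.82 (adjusted p = 0.0313) and -0.83 (adjusted p = 0.00943, limma). Saline 2 was the heart with the most atrial transcripts, at 6537 TPM of the atrial light chain Myl7 against 5.68 and 2.48 in the other Saline hearts, and its part in these values was not tested.

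Ttn, the giant elastic protein (chromosome 2, 76703980 to 76982547, minus strand), measured 22.3, 23.97 and 16.9 TPM among Saline and 14.0, 22.02 and 24.1 among CDDP hearts. Its log2 fold change was -0.09 (95% interval -0.71 to 0.53, adjusted p = 0.857, limma). The ranges were nearly the same, although the interval leaves room for a change of either sign.

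**Figure D3:**
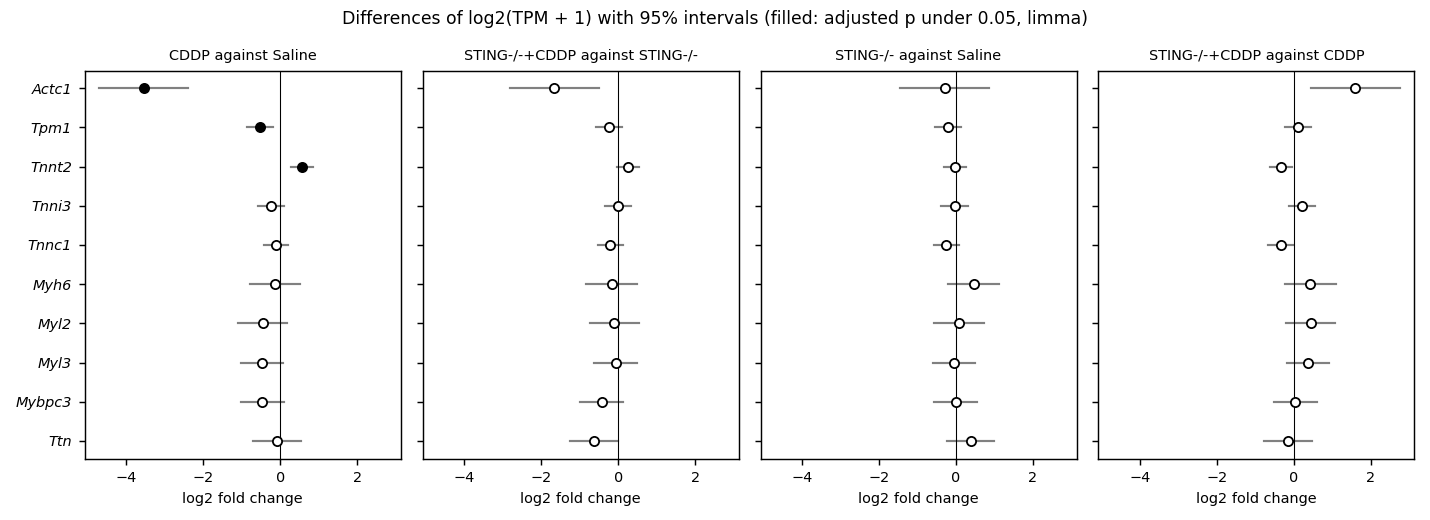
Log2 fold changes of the 10 genes with 95% intervals in 4 comparisons (limma, log2(TPM + 1)); filled points have an adjusted p under 0.05. Filled points are found in the comparison of CDDP with Saline, at -3.55 for Actc1, -0.54 for Tpm1 and 0.56 for Tnnt2, and every point of the other 3 panels is open.

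The shares of the 10 genes in their own sum show the same shift within each heart. Actc1 made up 9.50% to 12.2% of the summed TPM of the 10 genes in the Saline hearts, 0.532% to 2.57% in the CDDP hearts, 7.48% to 12.7% in the STING-/- hearts and 2.92% to 4.17% in the STING-/-+CDDP hearts. Tnnt2 made up 9.61% to 14.9%, 20.9% to 25.2%, 10.9% to 13.3% and 14.4% to 17.4%. The share of Tnni3 stayed between 9.12% and 13.0% over all 12 hearts, and that of Tpm1 between 13.7% and 17.8%.

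**Figure D4:**
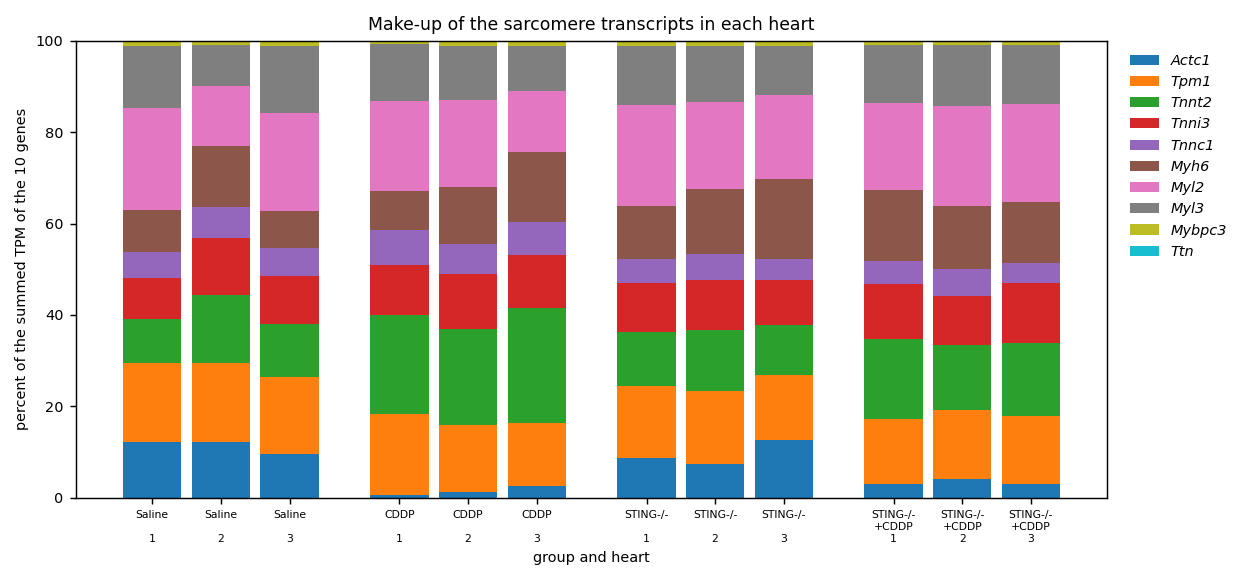
Stacked shares of the 10 genes in their summed TPM (percent, from 0 to 100) for each of the 12 hearts. The Actc1 block at the base shrinks to at most 2.57% in the CDDP hearts, and the Tnnt2 block is widest there, at 20.9% to 25.2%.

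The next comparison asked how STING-/- hearts given cisplatin differed from wild-type hearts given cisplatin. It shares the CDDP hearts with the comparison above, so the values are set side by side and no likeness is read from them. None of the 10 genes passed (1.22% of all tested genes did). An unadjusted p under 0.05 in limma was found for 3 of the 10 and for 2737 of the 13815 tested genes. Actc1 was higher in the 3 STING-/-+CDDP hearts than in the 3 CDDP hearts, by 1.60 on the log2 scale (SE 0.53, 95% interval 0.43 to 2.76, adjusted p = 0.138), and by 0.87 without CDDP 1. Tnnt2 was below every CDDP heart in all 3, with a log2 fold change of -0.34 (SE 0.13, adjusted p = 0.183, limma), and was called under quantile normalization alone (adjusted p = 0.0391). How many of all genes separate between these groups was not counted. Tnnc1, at 2174, 2972 and 2092 TPM in the STING-/-+CDDP hearts, had a log2 fold change of -0.34 (adjusted p = 0.224, limma) and overlapped. The median of the 10 genes was 0.15, and that of all tested genes -0.09.

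Myh6, Myl2 and Myl3 had central values between the Saline and CDDP groups or above them in the STING-/-+CDDP hearts. Myh6 was at 6480, 7130 and 6247 TPM there (log2 fold change against CDDP 0.43, adjusted p = 0.461, limma), a value of 0.07 without CDDP 1. Myl2 was at 8006, 11346 and 10085 TPM (0.43, adjusted p = 0.443) and Myl3 at 5309, 6851 and 6043 (0.37, adjusted p = 0.456). Each overlapped with the CDDP hearts. Tnni3 was at 5064, 5520 and 6103 TPM, Mybpc3 at 363, 480 and 416 and Ttn at 18.3, 16.9 and 16.9, and their log2 fold changes, 0.21, 0.04 and -0.16, were not called either.

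In STING-/- mice, no gene of the 10 was called. None of the 10 passed between STING-/-+CDDP and STING-/- hearts (0.934% of all tested genes did). An unadjusted p under 0.05 in limma was found for 2, Actc1 and Ttn, and for 1860 of the 13815 tested genes. The log2 fold change of Actc1 was -1.66 (SE 0.53, 95% interval -2.82 to -0.50, adjusted p = 0.183), 3.16-fold lower on the log2(TPM + 1) scale, and the groups did not overlap. The adjusted p was 0.0368 without CDDP 1 and 0.0410 when hearts were weighted by how closely their values followed the model (limma, arrayWeights). Tnnt2 differed by 0.24 (SE 0.13, adjusted p = 0.453) and Ttn by -0.63 (SE 0.28, adjusted p = 0.362, limma), both without overlap. How many of all genes separate between these groups was not counted. Without STING-/- 3 the value of Ttn was -0.28. Ttn was at 19.6, 23.3 and 44.7 TPM in the STING-/- hearts, and Mybpc3, at 518, 484 and 698 TPM there, was also above every STING-/-+CDDP heart (-0.42, adjusted p = 0.510, limma; -0.26 without STING-/- 3).

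The difference between the cisplatin effects of the genotypes was tested directly as an interaction. None of the 10 genes passed, with 0.00724% of all tested genes called. An unadjusted p under 0.05 in limma was found for 1, Actc1, and for 1615 of the 13815 tested genes. The fitted decrease of Actc1 was smaller in STING-/- mice by 1.89 on the log2 scale (SE 0.75, 95% interval 0.25 to 3.53, unadjusted p = 0.0276, adjusted p = 0.385, limma), and by 1.16 without CDDP 1. A difference between genotypes was thus not shown for any of the 10 genes after adjustment. Averaged over both genotypes, the effect of cisplatin was tested too. Actc1 fell by 2.60 on the log2 scale (SE 0.38, adjusted p = 0.00108), Tpm1 fell by 0.38 (SE 0.11, adjusted p = 0.0306) and Tnnt2 rose by 0.40 (SE 0.09, adjusted p = 0.0120, limma). These 3 of 10 stand beside 19.8% of all tested genes. The Tpm1 call was lost without Saline 1, CDDP 1, CDDP 3, STING-/- 1, STING-/- 3, STING-/-+CDDP 1 or STING-/-+CDDP 3 (adjusted p 0.0514 to 0.0752), and Tnnt2 and Actc1 held in all 12.

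Without cisplatin, none of the 10 genes was called between STING-/- and Saline hearts (0.0724% of all tested genes were). None had an unadjusted p under 0.05 in limma, against 510 of the 13815 tested genes. Tnnc1 was at 2609, 2630 and 3014 TPM in the STING-/- and at 3020 to 3568 in the Saline hearts, without overlap. How many of all genes separate in this way was not counted. The log2 fold changes ran from -0.29 for Actc1 (95% interval -1.46 to 0.87) to 0.46 for Myh6 (-0.20 to 1.12, and 0.17 without STING-/- 3), with a median of -0.03. STING-/- 3 had the highest Myh6 of all hearts, 11098 TPM beside 5676 and 6565 in its group, and also the highest Actc1 and Ttn.

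The beta myosin heavy chain Myh7, a paralog that is low in the adult mouse ventricle, was lower in STING-/- than in Saline hearts. It measured 550, 1742 and 1190 TPM among Saline, 770, 1859 and 1988 among CDDP, 63.0, 43.1 and 45.0 among STING-/- and 118, 390 and 628 among STING-/-+CDDP hearts. As a share of Myh6 plus Myh7 it was 8.39%, 22.05% and 21.7% among Saline and 20.4%, 22.9% and 23.96% among CDDP hearts. The share was 1.10%, 0.653% and 0.403% among STING-/- and 1.79%, 5.19% and 9.14% among STING-/-+CDDP hearts. All wild-type hearts but Saline 1 were above every STING-/-+CDDP heart, and every STING-/- heart was below all others. The mean share was lower by 16.7 percentage points in STING-/- than in Saline hearts and 17.0 points lower in STING-/-+CDDP than in CDDP hearts. It was 4.66 points higher in STING-/-+CDDP than in STING-/- hearts, and these 3 comparisons each had an exact permutation p of 0.10 (two-sided), the smallest that 3 hearts against 3 can give. Between CDDP and Saline hearts the shares overlapped, with an exact permutation p of 0.40.

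By limma, Myh7 was 20.7-fold lower in the STING-/- than in the Saline hearts (log2 fold change -4.37, SE 0.59, adjusted p = 0.0290). This call was lost without Saline 2 (adjusted p = 0.0539), Saline 3 (0.147), STING-/- 1 (0.0985), STING-/- 2 (0.153), STING-/- 3 (0.160) or STING-/-+CDDP 2 (0.0546). Averaged over genotypes, Myh7 rose with cisplatin by 1.52 (SE 0.41, adjusted p = 0.0249), a call lost without Saline 1, CDDP 2, CDDP 3, STING-/- 2, STING-/- 3, STING-/-+CDDP 2 or STING-/-+CDDP 3 (adjusted p 0.0514 to 0.0592). Within each genotype it was not called as fitted. The log2 fold change was 0.44 between CDDP and Saline hearts (adjusted p = 0.643, limma). Between STING-/-+CDDP and STING-/- hearts it was 2.61 (adjusted p = 0.0670, limma). Wild-type and STING-/- mice came from different suppliers, and genotype and colony cannot be told apart. The other paralogs, Tnni1, Tnnt1, Tpm2, Myl7 and Myl4, were not called in any comparison as fitted, although Myl7 and Myl4 were between CDDP and Saline without Saline 2 (adjusted p = 0.0122 and 0.00776, limma). Tnnt1, the slow skeletal troponin T, was at 11.3 to 24.4 TPM over all hearts, far under Tnnt2, and Tnni1, its troponin I counterpart, at most 5.34.

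Around the filaments, 85 further genes of the sarcomere and its upkeep were listed, of which 82 were tested. Between CDDP and Saline hearts, 7 rose and 12 fell (23.2%, against 18.9% of all tested genes), with a median log2 fold change of -0.06. The count was 9 without Saline 1, 10 without Saline 3 and 8 when only the compared groups were fitted. Of 21 Z-disc genes, 2 rose and 3 fell. Of 7 genes of thin filament length and the costamere, which ties the Z-disc to the membrane, 3 fell and none rose. Of 7 genes of folding and assembly, 2 rose and 2 fell, and of the 16 tested contractile paralogs none passed. Of 4 ubiquitin ligases, 2 rose and 1, Trim55, fell, and of 12 transcription factors 1, Srf, fell.

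Among the called genes, the largest rises were those of Myot (myotilin, an actin cross-linker of the Z-disc), Fbxo32 (atrogin-1, a ubiquitin ligase of muscle wasting), Trim54 (a ubiquitin ligase of the same muscle family as Trim55), Des (desmin, the intermediate filament around the Z-disc) and Mbnl1 (a splicing regulator). Myot measured 3.67, 7.51 and 7.0 TPM among Saline and 29.7, 23.6 and 41.7 among CDDP hearts (log2 fold change 2.22, SE 0.28, adjusted p = 0.000815, limma). Des was at 501, 566 and 476 TPM against 1082, 1241 and 1096 (1.15, SE 0.12, adjusted p = 0.000601). Both groups of hearts were well apart for either gene. Fbxo32 was at 15.3 to 17.7 TPM in the Saline and 33.7, 76.4 and 72.1 in the CDDP hearts (1.74, adjusted p = 0.00293), Trim54 at 87.2 to 151 against 248 to 289 (1.22, adjusted p = 0.00159) and Mbnl1 at 36.1 to 47.8 against 58.1 to 126 (0.94, adjusted p = 0.0215, limma). The Mbnl1 call was lost without Saline 1 (adjusted p = 0.0696) or Saline 3 (0.0701). Without the most atrial heart of each group, Fbxo32 had an adjusted p of 0.0511.

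The largest falls among the called genes were those of Fhl2 (a LIM-domain adaptor at the Z-disc and on titin), Mylk4 (a kinase of the myosin light chain kinase family), Lmod3 (leiomodin, which starts and lengthens actin filaments), Synpo2l (a Z-disc protein) and Dmd (dystrophin). Fhl2 measured 1332, 749 and 1337 TPM among Saline and 182, 393 and 309 among CDDP hearts (log2 fold change -1.97, SE 0.28, adjusted p = 0.00153, limma). Lmod3 was at 51.8, 30.8 and 31.6 TPM against 6.01, 12.8 and 14.5 (-1.73, SE 0.30, adjusted p = 0.00372). For Fhl2 and Lmod3 no CDDP heart reached a Saline heart. Synpo2l changed by -1.63 (adjusted p = 0.00664), Mylk4 by -1.74 (adjusted p = 0.0241) and Dmd by -0.99 (adjusted p = 0.0166, limma). Mylk4 was not called without Saline 1 (adjusted p = 0.0829), Saline 3 (0.0634), CDDP 1 (0.0747) or CDDP 2 (0.0734).

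Srf, the factor that binds CArG boxes, and Trim55 were picked after their values were seen. Each was the single gene of its list that fell, but the M-band and filament kinase lists also had 1 such gene each. Srf measured 33.3, 44.2 and 33.7 TPM among Saline and 19.9, 22.7 and 24.9 among CDDP hearts (log2 fold change -0.69, adjusted p = 0.0323, limma). The Srf call was lost without Saline 1, Saline 2 or Saline 3 or without CDDP 1 or CDDP 2, with adjusted p of 0.0545 to 0.0894. That of Trim55 (-0.66, adjusted p = 0.0211) was lost without Saline 1 (0.0913), CDDP 1 (0.0616) or CDDP 2 (0.0510).

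In the other comparisons few of these genes were called. None of the 82 passed between STING-/-+CDDP and CDDP hearts. Between STING-/-+CDDP and STING-/- hearts, Des alone passed, at 511, 560 and 628 TPM in the STING-/- and 786, 954 and 913 in the STING-/-+CDDP hearts (log2 fold change 0.64, SE 0.12, adjusted p = 0.0362, limma). That call was lost without CDDP 3 or any 1 of the 6 STING-/- hearts, with and without cisplatin (adjusted p 0.0543 to 0.154). Averaged over genotypes, 7 rose and 14 fell (25.6%, against 19.8% of all tested genes). Among these called genes, the largest rises were in Myot (1.58 on the log2 scale), Myh7 (1.52), Fbxo32 (1.16), Trim54 (0.96) and Des (0.90), and the largest falls in Fhl2 (-1.56), Acta2 (-1.39), Synpo2l (-1.37), Lmod3 (-1.31) and Mylk4 (-1.20). Acta2, the smooth muscle actin, lost its call (adjusted p = 0.0305, limma) without Saline 1, Saline 2, CDDP 1, CDDP 2, STING-/- 1, STING-/- 2, STING-/-+CDDP 1 or STING-/-+CDDP 3 (0.0504 to 0.0721). Mylk4 lost its call without Saline 1, CDDP 1, CDDP 2, STING-/- 3, STING-/-+CDDP 1 or STING-/-+CDDP 3 (adjusted p 0.0501 to 0.0627). Myh7 was the single gene called between STING-/- and Saline hearts.

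**Figure D5:**
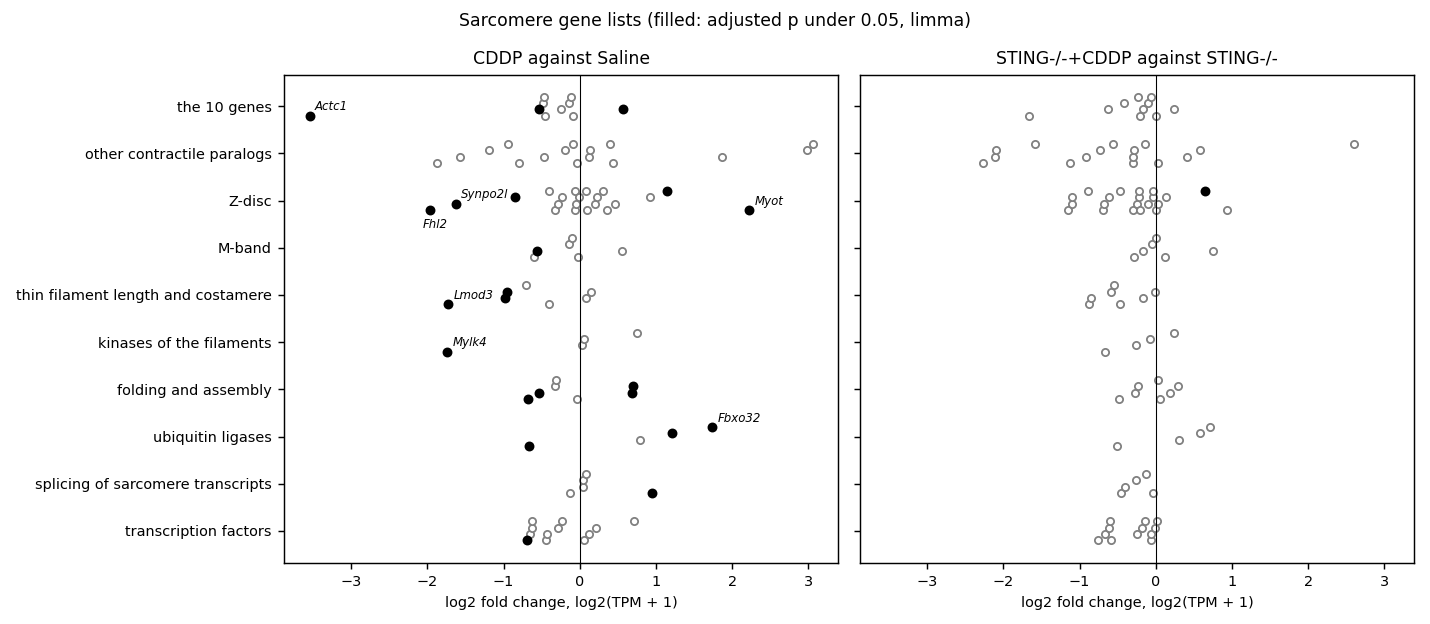
Log2 fold changes of the 10 genes and of the wider sarcomere lists in 2 comparisons, 1 point per tested gene, filled where the adjusted p was under 0.05; genes called with a change beyond 1.4 on the log2 scale are named at the left. Filled points lie on both sides of 0 at the left, from -3.55 for Actc1 to 2.22 for Myot, and at the right the 1 filled point is Des.

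Transcripts of other cells and of the rest of the cardiomyocyte moved in the same comparison, and their part in the values above was not tested. Among 12 cardiomyocyte genes outside the sarcomere, 5 fell between CDDP and Saline (Casq2, Gja1, Ckmt2, Fabp3 and Mb) and none rose, with summed TPM of 22908 to 27574 in the Saline and 15993 to 22885 in the CDDP hearts. The erythroid list fell in all 5 genes (4146 to 9317 TPM against 42.0 to 1271), 5 of 7 macrophage genes (422 to 548 against 123 to 256), 4 of 6 endothelial genes (517 to 668 against 360 to 448) and 4 of 7 fibroblast genes fell (sums of 827 to 1992 against 987 to 2100, which overlapped). Of 6 smooth muscle and pericyte genes, 1 fell (sums of 467 to 579 against 165 to 583, which overlapped). Of all tested genes, 10.4% were called lower in this comparison. None of 7 atrial genes was called, with sums of 313 to 39740 TPM in the Saline, 888 to 14982 in the CDDP, 3106 to 13067 in the STING-/- and 345 to 9203 in the STING-/-+CDDP hearts. Neutrophil genes were not called, and their sum was 1088 TPM in CDDP 1, the heart with the lowest Actc1, and at most 87.9 elsewhere. The skeletal myosins Myh1, Myh2 and Myh4 were at most 0.11 TPM in every heart. The ventricular markers Myl2, Myl3 and Irx4 were present in all hearts, Irx4 at 7.55 to 16.1 TPM. Without the most atrial heart of each group, Actc1 kept its call between CDDP and Saline and Myl3 gained one (adjusted p = 0.0490, limma), while Tpm1 (0.0739) and Tnnt2 (0.106) lost theirs.

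Across the 12 hearts, pairs of the 10 genes were compared by Pearson's r on log2(TPM + 1), as a description, since all values of a heart share its library and scaling. The closest pair was Myl2 and Myl3, with r of 0.98 over hearts and, after group means were removed, again 0.98. Over all 45 pairs the median r was 0.51. Actc1 and Tnnt2 had an r of -0.63 over hearts but 0.85 within groups, while the groups differed in opposite directions. The r within groups pools all groups, and CDDP 1, the lowest heart of its group for both genes, weighs heavily in it. Only among the STING-/- hearts did the heart with the most Actc1 also have the most Tnnt2. The r without CDDP 1 was not computed. Myh6 and Ttn, which were close within groups (0.94), had 0.80 over hearts.

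The genes outside the 10 that followed them most closely, out of 6053 with a mean of at least 10 TPM, were sought by their r with the mean of the 10 genes, each centred and scaled over the 12 hearts. They were Uqcrc1, Gm12439, Ndufa10, Cs, Tuba8, Uqcrc2, Cavin4, Ndufa9, Alkbh7 and Slc12a7, with r from 0.92 to 0.90. Uqcrc1, Uqcrc2, Ndufa10 and Ndufa9 encode parts of the mitochondrial respiratory chain, and Cs citrate synthase of the citric acid cycle.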

How the data were processed

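RNA-seq values of 12 hearts were used, in 4 groups read from the labels for genotype and treatment. The authors deposited TPM per gene, with gene length and group means, and the group means were not used. The submitters' processing notes name fastp, HISAT, RSEM and GRCm38.p5; versions, annotation and strand setting are not given in the sources used here. Positions came from GENCODE M21 (GRCm38), promoters from RefSeq (GRCm38.p6), where all 10 genes had an entry.

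Values were transformed to log2(TPM + 1), which understates the change of low genes. The 13815 genes that reached 1 TPM in 3 or more hearts entered a linear model (limma 3.58.1, R 4.3.3, moderated with a mean-variance trend), with 1 coefficient per group and 8 residual degrees of freedom. Tests were two-sided with Benjamini-Hochberg adjustment over all tested genes and a threshold of 0.05. TPM are not counts, so count models and intervals from depth were not used. The code was tested on simulated data. Figures were drawn with matplotlib 3.10.9.

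The 10 genes and all lists were chosen with earlier results of these data known. Named were the 10 genes, 7 paralogs, per comparison up to 5 called genes of the wider lists in each direction, and the 10 genes most like the 10. A530058N18Rik, Srf, Trim55, Casq2, Gja1, Ckmt2, Fabp3, Mb, Actb, Nisch, Pth1r and the genes like Actc1 were named after their values were seen.

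Results were recomputed without the filter, with one at 5 TPM, with 0.1 as pseudocount, with models restricted to the compared groups, with median of ratios scaling, quantile normalization, TPM without mitochondrially encoded genes or without the 10 genes in the sum, eBayes without trend, arrayWeights, a replicate block, each heart left out, and calls limited to log2 fold changes of 1 or more in size. Leaving out the most atrial heart of each group was chosen after seeing the data.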

Additional observations from a re-analysis of the deposited data

How the results depend on the processing

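The number of the 10 genes called between CDDP and Saline, 3 in the fit reported, was 1 (Actc1) with no filter, in a fit of only the compared groups and when calls needed a log2 fold change of 1 or more in size, and ranged from 1 to 5 when a heart was left out, 1 without Saline 1 and 5 without Saline 2. Averaged over genotypes, the count of 3 became 1 with no filter, when calls needed a log2 fold change of 1 or more in size and without the most atrial heart of each group. Between STING-/-+CDDP and CDDP it went from 0 to 1 under quantile normalization. Between STING-/-+CDDP and STING-/- it went from 0 to 1 with arrayWeights and ranged from 0 to 1 when a heart was left out. No called gene that was followed through these alternatives reversed its direction. Gja1, Ckmt2, Fabp3 and Mb were not followed in this way.

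Over all tested genes, 2610 were called between CDDP and Saline, 822 to 3904 over the alternatives and 1241 to 2548 without a heart. The count ran from 6 to 671 (168 as reported) between STING-/-+CDDP and CDDP, from 3 to 29 (10) between STING-/- and Saline, from 3 to 613 (129) between STING-/-+CDDP and STING-/-, from 547 to 3962 (2740) averaged over genotypes and from 1 to 15 (1) for the interaction. The share of calls that were higher moved from 29.8% to 41.8% with median of ratios scaling and 46.8% with quantiles between STING-/-+CDDP and CDDP, from 27.1% to 47.1% and 55.9% between STING-/-+CDDP and STING-/-, and from 36.7% to 49.2% and 51.4% averaged over genotypes. Scaling by median of ratios or quantiles moved the median log2 fold change of all genes between STING-/-+CDDP and CDDP from -0.09 to as much as 0.01, and between STING-/-+CDDP and STING-/- from -0.11 to 0.02.

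The numbers of the hearts are only names. Residuals of same-numbered hearts in different groups had r from -0.33 to 0.26 (median -0.01), and other pairs -0.31 to 0.43. With a replicate block, 2 of the 10 genes were called between CDDP and Saline (Tpm1 had an adjusted p of 0.0602, limma), and 2 averaged over genotypes (Tpm1, 0.0556). The block left 2175 genes called between CDDP and Saline and 67 between STING-/-+CDDP and CDDP.

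With 3 hearts a group and no read counts, the median SE over all genes was 0.22 on the log2 scale. Larger SEs were found for Actc1 (0.53), Myh6 (0.30), Myl2 (0.29), Ttn (0.28), Mybpc3 (0.26) and Myl3 (0.25). The differences of -0.63 (Ttn, STING-/-+CDDP against STING-/-) and 1.60 (Actc1, STING-/-+CDDP against CDDP) were not called.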

Other observations

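The genes closest to Actc1 over the 12 hearts, out of 6062 with a mean of at least 10 TPM, were Lmod3, Plpp7, Afg1l, Fkbp4, Ank1, Casq2, Pdhb, Fsd2, Lynx1 and Ndufaf1, with Pearson's r of 0.99 to 0.97. All points share their library and scaling, and the groups differ in Actc1, so the r within groups is given beside it. For Lmod3, the actin nucleator described above, r was 0.99 over hearts and 0.94 within groups. Casq2, calsequestrin of the sarcoplasmic reticulum, had 0.97 over hearts and 0.84 within groups. It measured 456, 389 and 385 TPM among Saline, 90.4, 104 and 162 among CDDP, 350, 332 and 432 among STING-/- and 208, 221 and 164 among STING-/-+CDDP hearts. Casq2 thus had the same tiers as Actc1, with no overlap between the STING-/-+CDDP hearts and any other group.

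The cytoplasmic actins Actb and Actg1 did not show these tiers. Actb measured 393, 299 and 228 TPM among Saline and 393, 231 and 245 among CDDP hearts. Actg1 measured 360, 306 and 210.5 TPM among Saline and 584, 325 and 412 among CDDP hearts (log2 fold change 0.58, SE 0.30, adjusted p = 0.198, limma).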
